A study of Mus musculus with 17 samples.

Results

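The immunoproteasome genes Psmb8, Psmb9, Psmb10, Psme1 and Psme2 and their constitutive counterparts Psmb5, Psmb6, Psmb7 and Psme3 were followed in mouse colorectal tumors with and without the tyrosine kinase Tyk2. These 9 genes were taken by name from the 55421 genes of the gene-level read count tables. Tumors had been induced with azoxymethane (AOM), a mutagen, and dextran sulfate sodium (DSS), which injures the colon lining, and RNA from the tumors was sequenced. All mice had a C57BL/6 background and all were treated with AOM-DSS, so no group is untreated colon. Tyk2Δ/Δ tumors (n = 3 libraries) came from mice with a germline deletion of Tyk2 in every cell, made with CMV-cre, and Tyk2+/+ tumors (n = 3) came from their wild-type littermates. Tyk2ΔIEC tumors (n = 4) came from mice with floxed Tyk2 alleles and Villin-cre, which removes Tyk2 in intestinal epithelial cells and leaves it in the stroma and in immune cells, and Tyk2fl/fl tumors (n = 7) came from littermates with the floxed alleles and no cre. The labels give neither age nor sex. The sources differ on whether a library holds 1 tumor or pooled tumors and do not say whether each library is a separate mouse, so the p-values measure the spread between these libraries, which may be partly technical.

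The proteasome is the barrel-shaped protease that degrades ubiquitin-tagged proteins, and its proteolytic sites lie on beta subunits inside the 20S core. In cells exposed to interferon gamma, the subunits beta5i (Psmb8), beta1i (Psmb9) and beta2i (Psmb10) are built into new particles in place of beta5 (Psmb5), beta1 (Psmb6) and beta2 (Psmb7), and the cap PA28 alpha-beta (Psme1 with Psme2) is induced with them, whereas its relative PA28 gamma (Psme3) forms a nuclear cap. The immunoproteasome cuts proteins into peptides that fit MHC class I molecules, and immune cells carry it without any stimulus.

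The promoter windows of the genes with a sequence match are shown first, together with that of Psmb9, which lies near Psmb8 and moved with it. The windows run from 250 bases before to 50 bases after the transcript start annotated by RefSeq (mouse build GRCm38.p6) and are printed 5′ to 3′ on the gene's strand, with the match in capitals. For Psmb8 (chr17:34197945-34198244, plus strand) the capitals mark a gamma-activated site, TTCNNNGAA, at positions -97 to -89 from the start. For Psmb9 (chr17:34187281-34187580, minus strand) none of the 3 motifs was found. For Psme1 (chr14:55578244-55578543, plus strand) they mark an interferon-stimulated response element (GAAA, any 2 bases, then GAAA) read on the opposite strand at positions 10 to 19. For Psmb5 (chr14:54617946-54618245, minus strand) and Psmb6 (chr11:70525107-70525406, plus strand) they mark an antioxidant response element, TGACNNNGC, at positions -47 to -39 and -9 to -1.
Psmb8: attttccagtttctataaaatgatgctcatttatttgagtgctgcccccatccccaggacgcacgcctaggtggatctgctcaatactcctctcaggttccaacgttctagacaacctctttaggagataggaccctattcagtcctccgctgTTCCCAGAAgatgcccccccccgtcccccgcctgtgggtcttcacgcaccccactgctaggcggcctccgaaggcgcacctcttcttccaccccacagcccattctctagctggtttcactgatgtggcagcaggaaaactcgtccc
Psmb9: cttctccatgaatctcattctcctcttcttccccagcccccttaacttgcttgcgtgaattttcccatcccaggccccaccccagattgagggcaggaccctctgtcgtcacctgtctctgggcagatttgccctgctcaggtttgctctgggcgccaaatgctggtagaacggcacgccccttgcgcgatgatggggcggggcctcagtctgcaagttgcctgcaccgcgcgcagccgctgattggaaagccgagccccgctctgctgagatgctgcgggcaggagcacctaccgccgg
Psme1: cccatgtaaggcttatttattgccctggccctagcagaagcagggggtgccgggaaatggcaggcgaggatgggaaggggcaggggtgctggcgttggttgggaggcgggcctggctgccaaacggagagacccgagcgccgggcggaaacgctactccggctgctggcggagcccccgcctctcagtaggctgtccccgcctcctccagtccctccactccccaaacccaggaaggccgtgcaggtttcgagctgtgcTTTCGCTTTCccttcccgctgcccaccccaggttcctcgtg
Psmb5: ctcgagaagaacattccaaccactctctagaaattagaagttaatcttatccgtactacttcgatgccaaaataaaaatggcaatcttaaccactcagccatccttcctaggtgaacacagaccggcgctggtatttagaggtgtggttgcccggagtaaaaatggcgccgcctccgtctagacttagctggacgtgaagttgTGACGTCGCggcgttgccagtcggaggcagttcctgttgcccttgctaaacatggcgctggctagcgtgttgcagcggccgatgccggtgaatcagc
Psmb6: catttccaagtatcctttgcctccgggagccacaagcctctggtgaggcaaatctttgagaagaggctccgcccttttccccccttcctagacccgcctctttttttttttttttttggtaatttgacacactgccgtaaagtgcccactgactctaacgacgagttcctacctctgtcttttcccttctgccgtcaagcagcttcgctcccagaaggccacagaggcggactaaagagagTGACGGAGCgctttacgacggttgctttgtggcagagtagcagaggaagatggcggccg

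Of the 5 inducible genes, 1 window held the gamma-activated site and 1 held the interferon-stimulated response element, and none held the antioxidant response element. Of the 3 constitutive genes with a window, 2 held the antioxidant response element and none held either interferon motif. Psmb10, Psme2 and Psme3 held none of the 3 motifs, and Psmb7 had no window in the table. Over all 32544 windows searched on both strands in the same way, 8.33% held TTCNNNGAA, 3.45% held the interferon-stimulated response element and 12.4% held TGACNNNGC. The motif letters do not overlap one another in these windows. A match is a description of the letters only. The windows of Psmb8, Psmb9 and Psme1 lie inside longer GENCODE gene models. The GENCODE release used here for gene positions, exon lengths, overlaps and shared stretches is not the one the paper names for its counts.

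Psmb8 and Psmb9 lie close together in the MHC region (17:34197721-34201454 and 17:34181987-34187764), and Psme1 and Psme2 lie close together on chromosome 14 (14:55578123-55581529 and 14:55587441-55591113). Psmb10 (8:105935735-105938444) lies apart from both pairs. Psmb5 (14:54614119-54618022), Psmb6 (11:70525367-70527858), Psmb7 (2:38588036-38644087) and Psme3 (11:101316213-101323537) are the constitutive set, all positions in GRCm38. The reads were 75 bases long, and 36.8% of the 75-base stretches of Psmb5 occur in another annotated gene, mostly the copy Gm3375, which had 2 to 15 counts per library. For Psme2 the share was 22.9%, with the copy Psme2b at 58 to 230 counts, and for Psme1 it was 1.31%. Since only uniquely mapped reads were counted, the levels of Psmb5 and Psme2 are lower bounds, and their comparison between genotypes rests on the unique stretches. Psmb9 shares 212 exon bases with Tap1 on the opposite strand, and Psmb7 shares 405 with Nek6. Which strand setting the counts carry is not given in the sources used here, so reads of those bases cannot be assigned with certainty.

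Total counts per library were between 19129696 and 21707373 in the Tyk2Δ/Δ, Tyk2+/+ and Tyk2ΔIEC groups and between 29777763 and 35427965 in the Tyk2fl/fl group. Levels are given as CPM, the counts of a gene as a share of its library's total after trimmed-mean scaling over the 17 libraries. Tyk2 itself was at 58.3 to 58.5 CPM in Tyk2Δ/Δ, 55.2 to 57.1 CPM in Tyk2+/+, 51.1 to 55.4 CPM in Tyk2ΔIEC and 42.8 to 55.1 CPM in Tyk2fl/fl tumors. The deletion removes an exon with the start codon and leaves a transcript, so counts per gene do not check the genotype labels. Tyk2fl/fl replicates 1 to 3 stood apart by Xist, the RNA of the inactive X chromosome, at 1218 to 1289 CPM against at most 3.10 CPM in the other 14 libraries. The change of each member and the mean ratio in the epithelial comparison are therefore given with and without them, and the other genes and markers with all 7 Tyk2fl/fl libraries.

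In Tyk2Δ/Δ tumors all 5 inducible genes fell, the catalytic subunits Psmb8 and Psmb9 by over 2 log2 units and Psmb10, Psme1 and Psme2 by less than 1. None of the 4 constitutive genes passed the test. Called means an adjusted p under 0.05 in edgeR's quasi-likelihood test, adjusted over the 16179 genes tested in the germline experiment. By that rule 2.13% of all genes were called lower and 2.8% in either direction.

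Psmb8, which encodes the inducible chymotrypsin-like subunit beta5i, had 33.0, 30.9 and 31.9 CPM in Tyk2Δ/Δ tumors against 128.7, 134.9 and 193.1 CPM in Tyk2+/+ tumors. The highest Tyk2Δ/Δ library lay far below the lowest Tyk2+/+ library, and the Tyk2Δ/Δ libraries lay close together (coefficient of variation 3.27%). The log2 fold change was -2.27 ± 0.15 (SE, adjusted p = 0.000846, edgeR).
Psmb9, which encodes beta1i, the replacement of the caspase-like subunit, had 14.4, 12.7 and 14.8 CPM in Tyk2Δ/Δ tumors against 52.1, 47.1 and 73.2 CPM in Tyk2+/+ tumors. Again the groups did not overlap, and Tyk2+/+ replicate 3 was the highest library for both genes. The log2 fold change was -2.06 ± 0.17 (SE, adjusted p = 0.0014, edgeR).

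Psmb10, which encodes the inducible trypsin-like subunit beta2i, had 78.0, 70.8 and 71.1 CPM in Tyk2Δ/Δ tumors against 104.3, 114.5 and 139.5 CPM in Tyk2+/+ tumors. The groups did not overlap, but the gap was narrower than for the other inducible catalytic subunits, with a log2 fold change of -0.72 ± 0.11 (SE, adjusted p = 0.0162, edgeR). Psme1, the alpha chain of the PA28 cap, had 167.0, 143.9 and 142.3 CPM in Tyk2Δ/Δ tumors against 214.4, 213.0 and 237.4 CPM in Tyk2+/+ tumors. Psme2, the beta chain, had 163.6, 161.1 and 155.6 CPM in Tyk2Δ/Δ tumors against 232.3, 216.1 and 264.9 CPM in Tyk2+/+ tumors. Both cap genes were lower in every Tyk2Δ/Δ library than in any Tyk2+/+ library, by -0.57 ± 0.08 for Psme1 and -0.59 ± 0.08 for Psme2 on the log2 scale (SE, adjusted p = 0.0147 and 0.0138, edgeR). Among all genes tested, 13.3% had groups that did not overlap in the lower direction. The median log2 fold change of the 5 inducible genes was -0.72, beside 0.004 over all genes tested. Only Psmb8 and Psmb9 were past 2-fold, as were 1.21% of all genes in the lower direction.

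The calls of the smaller changes turned on single libraries. Without Tyk2Δ/Δ replicate 2, Psmb10 (adjusted p = 0.0882), Psme1 (adjusted p = 0.0848) and Psme2 (adjusted p = 0.0721) were no longer called by edgeR, which left 2 of 5 called, and without Tyk2+/+ replicate 3 Psme1 was not (adjusted p = 0.0672). Psmb10 was not called when all 17 libraries shared 1 estimate of the spread (adjusted p = 0.0864).

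The constitutive genes stayed within narrow ranges. Psmb5, the standard chymotrypsin-like subunit beta5, had 55.4, 51.6 and 47.6 CPM in Tyk2Δ/Δ tumors against 56.1, 54.8 and 55.2 CPM in Tyk2+/+ tumors, and Psmb6, subunit beta1, had 169.0, 165.5 and 153.8 CPM in Tyk2Δ/Δ tumors against 183.6, 161.5 and 188.4 CPM in Tyk2+/+ tumors. Psmb7, subunit beta2, had 161.2, 162.5 and 146.2 CPM in Tyk2Δ/Δ tumors against 178.9, 160.3 and 171.1 CPM in Tyk2+/+ tumors. The groups overlapped for all of Psmb5, Psmb6 and Psmb7, with log2 fold changes of -0.12, -0.14 and -0.13 (95% intervals -0.28 to 0.04, -0.32 to 0.03 and -0.29 to 0.02). Psme3, the PA28 gamma chain, had 179.7, 180.7 and 176.2 CPM in Tyk2Δ/Δ tumors against 169.2, 173.4 and 169.4 CPM in Tyk2+/+ tumors. Its groups did not overlap, with the Tyk2Δ/Δ libraries higher, yet the difference was small and was not called (log2 fold change 0.05, 95% interval -0.07 to 0.17, adjusted p = 0.587, edgeR). Over all genes tested 15.5% were without overlap in the higher direction. None of the 4 constitutive genes reached an unadjusted p of 0.05 in edgeR, and DESeq2 and limma voom each called 0. The intervals leave room for a decrease of up to 0.32 on the log2 scale.

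**Figure D1:**
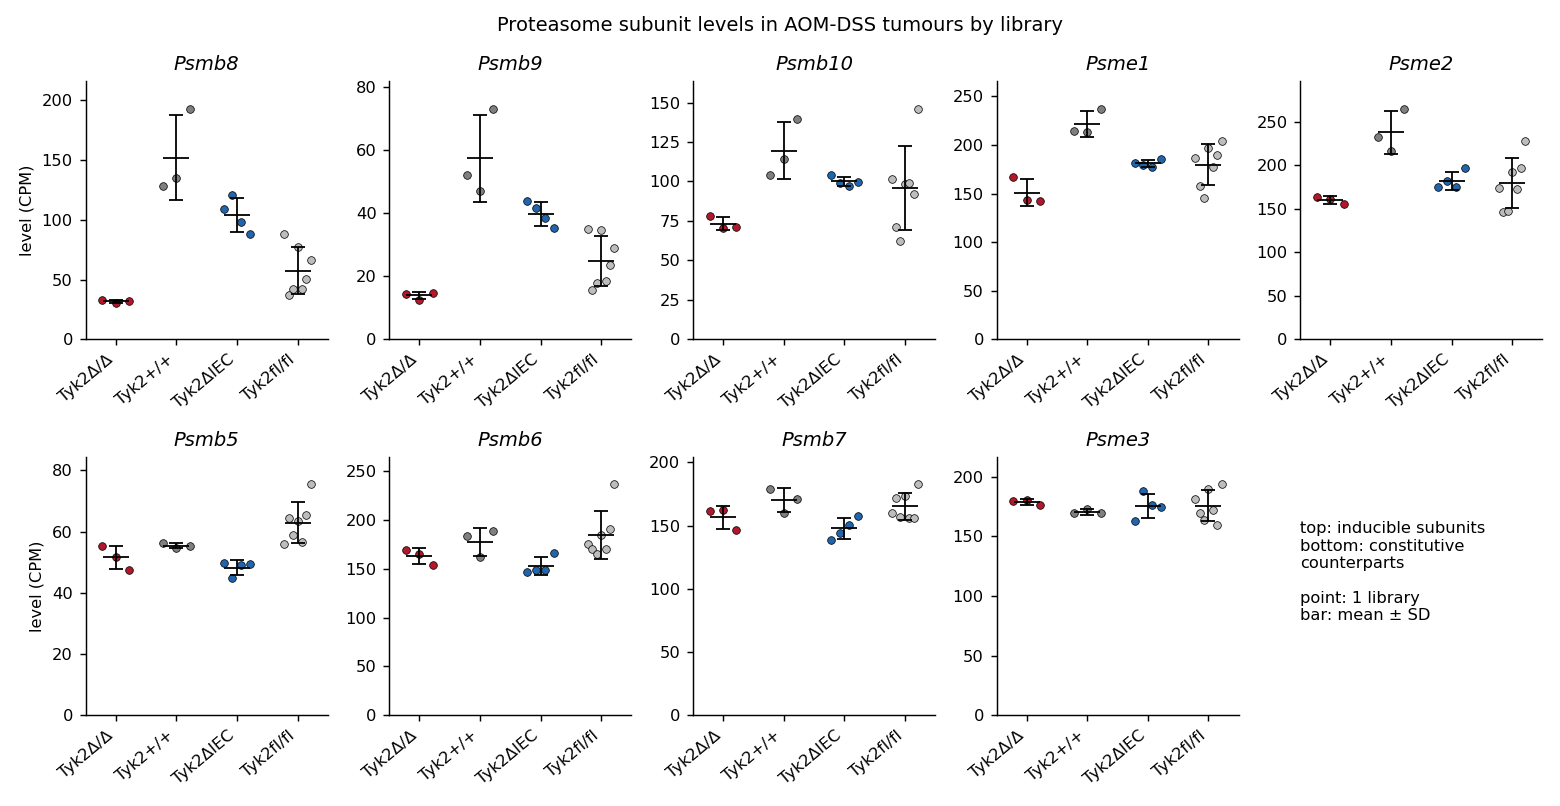
Level of each subunit gene (CPM, y axis from 0) in every library, by genotype, with the inducible genes in the top row and the constitutive genes in the bottom row; each point is 1 library and bars are mean ± SD (n = 3, 3, 4 and 7 libraries). Psmb8 lies between 30.9 and 33.0 CPM in Tyk2Δ/Δ tumors, below all other libraries, while Psme3 stays between 159.9 and 193.6 CPM throughout.

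In Tyk2ΔIEC tumors 2 of the 5 inducible genes, Psmb8 and Psmb9, rose against Tyk2fl/fl tumors, where 10.2% of the 17668 genes tested were called higher and 19.9% in either direction. Psmb10, Psme1 and Psme2 did not pass the test. Of the 4 constitutive genes Psmb5 fell, where 9.71% of all genes were called lower. Calls were thus far more common in this experiment than in the germline experiment, and each call has to be read against these shares.

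Psmb8 had 109.2, 121.3, 98.4 and 88.1 CPM in Tyk2ΔIEC tumors, and in the 7 Tyk2fl/fl tumors the lowest was 36.9, the median 50.2 and the highest 88.2 CPM. The groups overlapped by a hair, since Tyk2fl/fl replicate 1 matched the lowest Tyk2ΔIEC library. The log2 fold change was 0.88 ± 0.22 (SE, 95% interval 0.41 to 1.36, adjusted p = 0.0161, edgeR). Psmb9 had 44.0, 41.8, 38.4 and 35.2 CPM in Tyk2ΔIEC tumors, and in Tyk2fl/fl tumors the lowest was 15.8, the median 23.6 and the highest 34.9 CPM. Here the groups did not overlap, as for 6.03% of all genes in the higher direction, and the log2 fold change was 0.70 ± 0.21 (SE, adjusted p = 0.0330, edgeR).
These calls were fragile. Without Tyk2ΔIEC replicate 2 neither gene was called (adjusted p = 0.0625 for Psmb8, edgeR), and Psmb9 also lost its call without any other single Tyk2ΔIEC library or without Tyk2fl/fl replicate 2, 5 or 6 (adjusted p between 0.0506 and 0.0936). With Tyk2fl/fl replicates 4 to 7 as the only controls, which leaves out the high-Xist libraries, the log2 fold changes were 0.83 for Psmb8 (adjusted p = 0.0123, edgeR) and 0.60 for Psmb9 (adjusted p = 0.0336).

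The other inducible genes had nearly the same mean in both groups, but a wider spread in Tyk2fl/fl tumors. Psmb10 averaged 100.04 ± 3.06 CPM in Tyk2ΔIEC and 95.8 ± 26.8 CPM in Tyk2fl/fl tumors (SD, n = 4 and 7), where replicate 3 was lowest at 62.3 CPM and replicate 7 highest at 146.1 CPM. Psme1 averaged 181.1 ± 3.53 CPM in Tyk2ΔIEC and 179.9 ± 21.2 CPM in Tyk2fl/fl tumors, and Psme2 averaged 182.1 ± 10.4 CPM in Tyk2ΔIEC and 179.8 ± 28.7 CPM in Tyk2fl/fl tumors. The log2 fold changes were 0.09 (95% interval -0.29 to 0.47), 0.04 (-0.15 to 0.22) and 0.05 (-0.19 to 0.28), so changes of the size seen in Tyk2Δ/Δ tumors lie outside these intervals in both directions. Against Tyk2fl/fl replicates 4 to 7 alone the log2 fold changes were -0.11, -0.08 and -0.11, and none was called. The median over the 5 inducible genes was 0.09, beside -0.0031 over all genes tested.

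Psmb5 had 49.8, 44.7, 49.1 and 49.4 CPM in Tyk2ΔIEC tumors, and in Tyk2fl/fl tumors the lowest was 55.9, the median 63.4 and the highest 75.4 CPM. The groups did not overlap, as for 9.5% of all genes in the lower direction, and the log2 fold change was -0.36 ± 0.08 (SE, adjusted p = 0.0122, edgeR). It was -0.42 against Tyk2fl/fl replicates 4 to 7 alone (adjusted p = 0.0111). Psmb6 averaged 152.6 ± 9.24 CPM in Tyk2ΔIEC and 184.6 ± 24.4 CPM in Tyk2fl/fl tumors (SD), and Psmb7 averaged 147.7 ± 8.12 CPM in Tyk2ΔIEC and 165.3 ± 10.6 CPM in Tyk2fl/fl tumors. Neither was called, with log2 fold changes of -0.25 (adjusted p = 0.0804, edgeR) and -0.13 (adjusted p = 0.140). Psmb6 was called lower with Tyk2fl/fl replicates 4 to 7 as the only controls (adjusted p = 0.0360) and without Tyk2fl/fl replicate 7 (adjusted p = 0.0460). Psme3 averaged 175.7 ± 10.2 CPM in Tyk2ΔIEC and 175.7 ± 12.9 CPM in Tyk2fl/fl tumors, and its log2 fold change of 0.03 had a 95% interval of -0.12 to 0.17. Against Tyk2fl/fl replicates 4 to 7 alone the values were -0.17 for Psmb7 and -0.02 for Psme3, not called.

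The 2 comparisons share no libraries, and the difference between their changes was tested in 1 fit over all 17 libraries, where 5.23% of 17252 genes had a germline change called lower than the epithelial change and 7.96% were called in either direction. Of the inducible genes 4 of 5 were called in that direction. The difference of the log2 fold changes was -3.15 ± 0.35 for Psmb8 (SE, adjusted p = 7.04e-05, edgeR), -2.75 ± 0.33 for Psmb9 (adjusted p = 0.000116), -0.60 ± 0.13 for Psme1 (adjusted p = 0.0114) and -0.62 ± 0.17 for Psme2 (adjusted p = 0.0287). For Psmb8 and Psmb9 the fitted changes had opposite signs, and for Psme1 and Psme2 a decrease stood against changes near 0.
Psmb10 had a difference of -0.80 ± 0.26 and was not called (unadjusted p = 0.00758, adjusted p = 0.0716, edgeR). Without Tyk2fl/fl replicate 7, its highest control, it was (adjusted p = 0.00881). The Psme2 call was lost in 8 of 17 fits that left out 1 library (adjusted p up to 0.115), and the Psme1 call without Tyk2Δ/Δ replicate 2 (adjusted p = 0.0566) or Tyk2+/+ replicate 3 (adjusted p = 0.0563). None of the 4 constitutive genes differed between the experiments by this test or at an unadjusted p of 0.05 in edgeR, and DESeq2 and limma voom also called 0. The largest constitutive value was 0.24 for Psmb5 (95% interval -0.01 to 0.50).

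**Figure D2:**
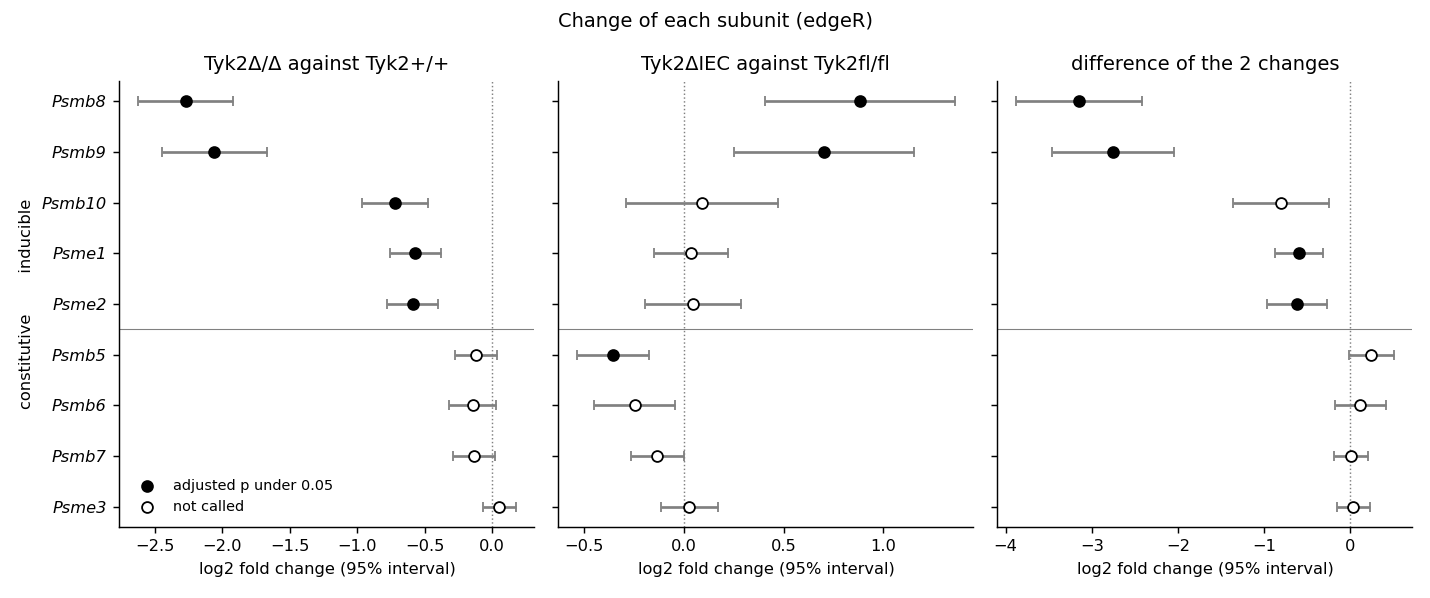
Log2 fold change of each subunit gene with its 95% interval (x axis) in Tyk2Δ/Δ against Tyk2+/+ tumors, in Tyk2ΔIEC against Tyk2fl/fl tumors, and for the difference of both changes; filled points were called at an adjusted p under 0.05 (edgeR) and the x axes differ in scale. The inducible genes above the line spread between -2.27 and -0.57 in the germline panel, while the constitutive genes below it lie between -0.14 and 0.05.

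Each inducible subunit was set against its counterpart as the ratio of their read counts within a library, which does not depend on the scaling between libraries. These are RNA ratios of whole tumors, and which subunits were built into particles was not measured. The ratios carry no test, since they are scores over genes chosen with earlier results of these data known. For beta5i over beta5, Psmb8 over Psmb5, the count ratio was 0.595, 0.598 and 0.670 in Tyk2Δ/Δ tumors against 2.29, 2.46 and 3.49 in Tyk2+/+ tumors. In Tyk2ΔIEC tumors it was 2.19, 2.71, 2.01 and 1.78, against 0.573 to 1.58 in Tyk2fl/fl tumors. The groups were separate in both experiments, lower in Tyk2Δ/Δ by 2.12 and higher in Tyk2ΔIEC by 1.29 on the log2 scale. The Tyk2ΔIEC value joins a higher Psmb8 (log2 fold change 0.88) to a lower Psmb5 (-0.36), and the groups overlapped for Psmb8 alone. For beta1i over beta1, Psmb9 over Psmb6, the mean count ratio was 0.0860 in Tyk2Δ/Δ and 0.322 in Tyk2+/+ tumors, and 0.263 in Tyk2ΔIEC and 0.135 in Tyk2fl/fl tumors. These groups also were separate, with log2 differences of -1.89 and 1.00. The second joins a higher Psmb9 (log2 fold change 0.70) to a lower Psmb6 (-0.25), whose own change was not called in that experiment alone.

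For beta2i over beta2, Psmb10 over Psmb7, the mean count ratio was 0.469 in Tyk2Δ/Δ and 0.704 in Tyk2+/+ tumors without overlap (log2 difference -0.58), and 0.679 in Tyk2ΔIEC and 0.577 in Tyk2fl/fl tumors with overlap (log2 difference 0.27). For the caps, Psme1 and Psme2 together over Psme3, it was 1.74 in Tyk2Δ/Δ and 2.69 in Tyk2+/+ tumors without overlap (log2 difference -0.63), and 2.07 in Tyk2ΔIEC and 2.05 in Tyk2fl/fl tumors with overlap (log2 difference 0.02). Over all members, the mean log2 ratio of the 5 inducible to the 4 constitutive genes was -1.04 ± 0.07 in Tyk2Δ/Δ and 0.10 ± 0.20 in Tyk2+/+ tumors (SD, difference -1.14). It was -0.14 ± 0.10 in Tyk2ΔIEC and -0.71 ± 0.26 in Tyk2fl/fl tumors (SD, difference 0.56, or 0.48 against Tyk2fl/fl replicates 4 to 7 alone). The groups did not overlap in either experiment. In Tyk2ΔIEC tumors the mean ratio also holds lower constitutive levels. The median log2 fold change there was -0.19 for the 4 constitutive and 0.09 for the 5 inducible genes. The inducible genes took 42.8% to 44.6% of the reads of all 9 genes in Tyk2Δ/Δ, 55.5% to 60.9% in Tyk2+/+, 52.5% to 55.2% in Tyk2ΔIEC and 42.6% to 50.5% in Tyk2fl/fl tumors.

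Levels of different genes were set side by side per kilobase of exon. The lengths are merged exons over all annotated transcripts, 3381 bases for Psmb8 and 3660 for Psmb9 but 899 for Psmb5, so that the order between genes rests on these lengths as well as on the shared stretches. In Tyk2+/+ tumors a mean Psmb8 over Psmb5 ratio of 2.75 in counts is one of 0.731 per kilobase. On this scale the Psmb8 level was 0.165 of the Psmb5 level in Tyk2Δ/Δ, against 0.731 in Tyk2+/+, and 0.578 in Tyk2ΔIEC and 0.246 in Tyk2fl/fl tumors, while the Psmb9 level was 0.0440 of the Psmb6 level in Tyk2Δ/Δ, 0.164 in Tyk2+/+, 0.134 in Tyk2ΔIEC and 0.0691 in Tyk2fl/fl tumors. The mean Psmb10 level was 0.940 of the Psmb7 level in Tyk2Δ/Δ, 1.41 in Tyk2+/+, 1.36 in Tyk2ΔIEC and 1.16 in Tyk2fl/fl tumors. In Tyk2+/+ tumors the mean level per kilobase was highest for Psme2 (135 CPM per kilobase) and Psme1 (100.3) and lowest for Psmb9 (15.7), with Psmb8 at 45.0 just below Psmb7 at 49.7. In Tyk2Δ/Δ tumors Psmb8 (9.44) and Psmb9 (3.81) were far below the next gene, Psmb10 (43.0).

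**Figure D3:**
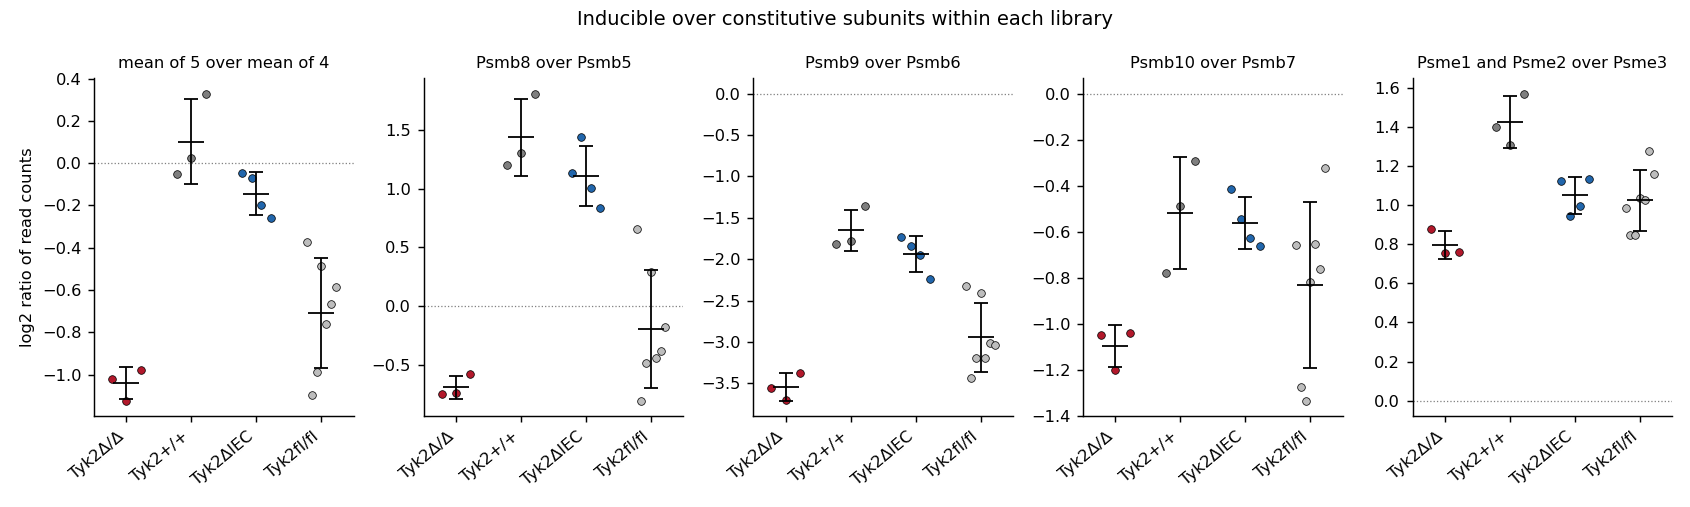
Log2 ratio of read counts of inducible over constitutive subunits (y axis, own scale per panel) in every library by genotype. Panels show the mean of all members and each inducible subunit or cap over its counterpart. Points are libraries, bars are mean ± SD, and the dotted line marks equal counts. In the first panel Tyk2Δ/Δ tumors average -1.04 and Tyk2+/+ tumors 0.10, and Tyk2ΔIEC tumors average -0.14 and Tyk2fl/fl tumors -0.71.

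Over the 4 groups, the mean level of every inducible gene was highest in Tyk2+/+, then in Tyk2ΔIEC, then in Tyk2fl/fl and lowest in Tyk2Δ/Δ tumors. The germline and epithelial experiments are separate sets of mice and libraries, so genotype and experiment cannot be told apart across them. Tyk2ΔIEC minus Tyk2+/+, the upper neighbors, was -0.54 for Psmb8 (adjusted p = 0.214, edgeR), -0.53 for Psmb9 (adjusted p = 0.213), -0.25 for Psmb10 (adjusted p = 0.478), -0.29 for Psme1 (95% interval -0.50 to -0.08, adjusted p = 0.102) and -0.38 for Psme2 (95% interval -0.64 to -0.12, adjusted p = 0.0863) on the log2 scale. None was called, in a contrast that called 2.96% of all genes. Every Tyk2ΔIEC library lay below every Tyk2+/+ library for Psmb8, Psmb9, Psme1 and Psme2. The share of all genes without overlap was not computed for this pair, so this separation cannot be weighed. Tyk2ΔIEC and Tyk2fl/fl tumors, the middle neighbors, differed in Psmb8 and Psmb9 in this fit as well (adjusted p = 0.00522 and 0.0153, edgeR). Psmb10, Psme1 and Psme2 were not called in this step (0.09, 0.04 and 0.04), so the order of the middle groups is not resolved for them. The control groups themselves differed: Tyk2+/+ was above Tyk2fl/fl by 1.43 for Psmb8 (adjusted p = 0.00124, edgeR), 1.23 for Psmb9 (adjusted p = 0.00236), 0.43 for Psme2 (adjusted p = 0.0185) and 0.32 for Psme1 (adjusted p = 0.0244), in a contrast that called 12.9% of all genes. Tyk2Δ/Δ minus Tyk2fl/fl, the lower neighbors, was -0.84 for Psmb8 (adjusted p = 0.0321, edgeR) and -0.82 for Psmb9 (adjusted p = 0.0306), where 12.4% of genes were called, and was not called for Psmb10, Psme1 or Psme2. Among the constitutive genes Psmb5 had another order, with means of 51.5 CPM in Tyk2Δ/Δ, 55.4 in Tyk2+/+, 48.2 in Tyk2ΔIEC and 62.9 in Tyk2fl/fl tumors.

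Within the Tyk2fl/fl group the inducible catalytic genes had the widest ranges of the 9. The highest library was 2.39 times the lowest for Psmb8, 2.34 times for Psmb10 and 2.21 times for Psmb9. Of the caps, Psme2 (1.55 times) was above every constitutive gene. Psme1 (1.40 times) lay between the constitutive Psmb6 (1.44 times) and Psmb5 (1.35 times), and Psme3 (1.21 times) and Psmb7 (1.17 times) varied least. Psmb8 and Psmb9 were high in replicates 1 and 4 and low in replicates 2, 3 and 5, so the high and low libraries do not follow the Xist split. Replicate 7 was highest for Psmb10, Psme1, Psme2, Psmb5, Psmb6, Psmb7 and Psme3 but not for Psmb8 or Psmb9.

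Similarity of pattern was measured as the root mean square difference of log2 CPM, each gene centered on its own mean over the 17 libraries. These libraries differ in depth and composition, which all genes of a library share, so the distances are not free of either. Values were not scaled to each gene's range. Genes that move together by unlike amounts thus lie apart, and genes that hardly move lie close. Psmb8 was closest to Psmb9 (0.125), then to H2-Q4 (0.148) and Ifi47 (0.173), and Psmb9 to Psmb8, H2-Q4 (0.156) and the class I heavy chain gene H2-K1 (0.158). Psmb10 was closest to Mlkl (0.151), Sp110 (0.157) and Ifi35 (0.162). Psme1 was closest to Ifi35 (0.0732), Psme2 (0.0872) and Epsti1 (0.106), and Psme2 to Psme1, Epsti1 (0.108) and Ifi35 (0.114). Of the constitutive genes, Psmb6 was closest to Psmb4 (0.0310), a further beta subunit of the core, Ptrh2 and Eif5a, and Psmb7 to Slc39a1 (0.0436), Hspa14 and the 19S ATPase gene Psmc2 (0.0502). Psmb5 was closest to Atp6v1f (0.0642), Tmed9 and Map2k2, and Psme3 to Eif3l (0.0385), Prpf19 and Traf4. By this distance the inducible genes were no single block, and their 10 pairs had distances of 0.0872 to 0.661 with a median of 0.542. Psmb8 and Psmb9 ranged over 2.64 and 2.52 log2 units, but Psme1 and Psme2 over 0.74 and 0.85. The 6 constitutive pairs had a median of 0.121 and the 20 mixed pairs 0.313.

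**Figure D4:**
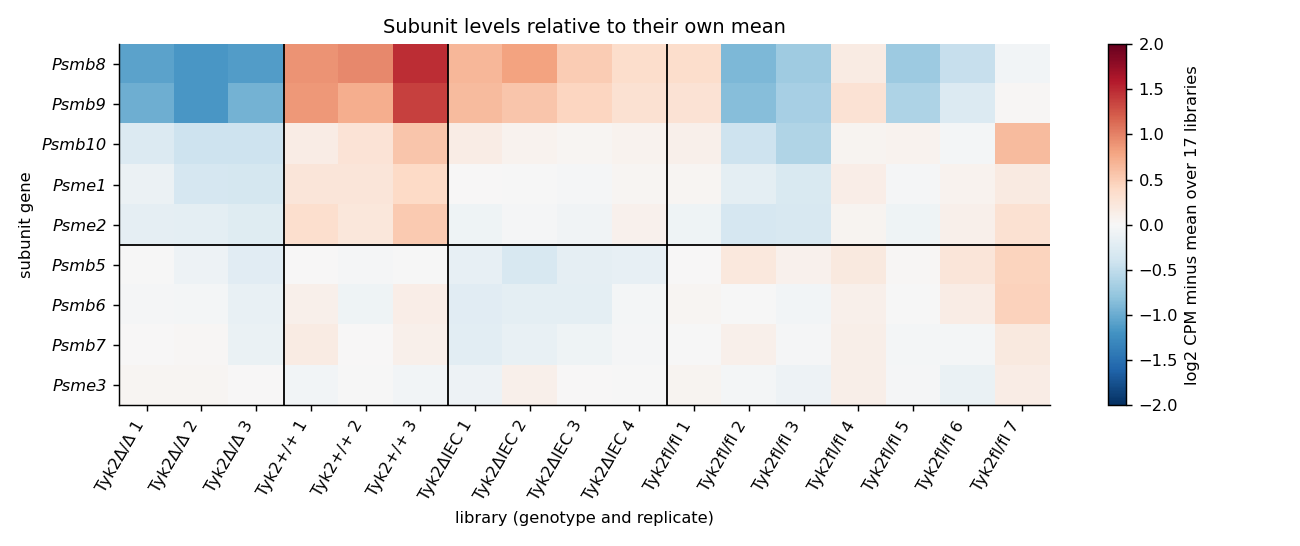
Log2 CPM of each subunit gene minus its own mean over the 17 libraries (color, red above and blue below the mean), with genes in rows and libraries in columns by genotype and replicate. Psmb8 and Psmb9 are deep blue in the 3 Tyk2Δ/Δ libraries and red in the 3 Tyk2+/+ and 4 Tyk2ΔIEC libraries, while the constitutive rows stay pale.

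Of 42 other proteasome genes listed, 41 were tested. In Tyk2Δ/Δ tumors 0 of 41 were called by edgeR (14 at an unadjusted p under 0.05) and 0 by limma voom, while DESeq2 called 6, named here after their values were seen: Psma1, Psma2, Psmc6, Psmd14, Psme4 and Uchl5. The median log2 fold change of the 41 was -0.09 and 32 were negative. The 11 other genes of the 20S core were negative in 11 of 11, with a median of -0.20, and 5 of them had groups without overlap in the lower direction, as had 13.3% of all genes. Without Tyk2+/+ replicate 2, edgeR called 5 of the 41 in this comparison. In Tyk2ΔIEC tumors 7 of 41 were called lower and 1 higher, with a median of -0.11, beside 9.71% of all genes lower, 10.2% higher and 19.9% in either direction. Among them were the core genes Psmb3 (log2 fold change -0.45, adjusted p = 0.0135, edgeR) and Psma4 (-0.29, adjusted p = 0.0152), the assembly chaperone genes Psmg4 (-0.58, adjusted p = 0.00884), Psmg2 (-0.29, adjusted p = 0.0121) and Pomp (-0.37, adjusted p = 0.0391), the ATPase gene Psmc5 (-0.19, adjusted p = 0.0371) and Psmd9, also an assembly chaperone. This count was 5 without Tyk2ΔIEC replicate 1, 4 without replicate 2 or 3, and 14 without Tyk2fl/fl replicate 3 or 7.

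Psme4, which encodes the nuclear cap PA200, was the gene called higher in Tyk2ΔIEC tumors. It had 226.4, 254.0, 252.0 and 250.02 CPM in Tyk2ΔIEC tumors, with a median of 209.4 CPM in Tyk2fl/fl tumors, and a log2 fold change of 0.32 (adjusted p = 0.0129, edgeR). In Tyk2Δ/Δ tumors it had 199.98, 171.2 and 211.4 CPM against 242.0, 233.2 and 240.6 CPM in Tyk2+/+ tumors, without overlap but not called (-0.31, adjusted p = 0.0965). The difference between the changes was called for Psme4 (-0.62, adjusted p = 0.00548, edgeR). It was also called for Psmd14 (-0.35), Usp14 (-0.30) and Psmc6 (-0.52), named after their values were seen. These 4 of 41 genes had the direction of the inducible genes, beside 5.23% of all genes called lower. Over the 41 the median was 0.02, with 24 positive and 17 negative, so the list as a whole did not follow the inducible genes. The subunits of other tissues were near absent, with 0 to 10 counts for Psma8 of testis and 0 to 3 counts for Psmb11 of thymus.

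Among 5 regulators of proteasome genes, 2 fell in Tyk2Δ/Δ tumors, where 2.13% of all genes were called lower. Nlrc5, the transactivator of MHC class I genes, had 5.38, 4.22 and 6.01 CPM in Tyk2Δ/Δ tumors against 42.1, 51.6 and 68.1 CPM in Tyk2+/+ tumors, a log2 fold change of -3.38 ± 0.21 (SE, adjusted p = 0.000846, edgeR). Irf1, a transcription factor induced by interferons, changed by -0.60 ± 0.10 (SE, adjusted p = 0.0212, edgeR). In Tyk2ΔIEC tumors Nlrc5 (1.41 ± 0.35, adjusted p = 0.0167, edgeR) and Irf1 (0.48 ± 0.15, adjusted p = 0.0433) rose, where 10.2% of all genes were called higher. The difference between the experiments was called for Nlrc5 (-4.79, adjusted p = 0.000116, edgeR) and Irf1 (-1.07, adjusted p = 0.00906), beside 5.23% of all genes called lower. Nfe2l1 and Nfe2l2, known as activators of the constitutive subunits, had log2 fold changes of 0.10 and 0.14 in Tyk2Δ/Δ tumors and 0.14 and -0.08 in Tyk2ΔIEC tumors, and none of these was called.

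Of 11 genes of MHC class I peptide processing, with class I chains among them, 7 fell in Tyk2Δ/Δ tumors, beside 2.13% of all genes. In Tyk2ΔIEC tumors 5 of the 11 rose, beside 10.2% of all genes. This list, like the other gene lists and markers, was chosen with earlier results of these data known. Its counts beside those shares are therefore a description and no test of the list. Tap1, a chain of the peptide transporter and the gene next to Psmb9, had 17.9 to 22.3 CPM in Tyk2Δ/Δ tumors against 85.3 to 130 CPM in Tyk2+/+ tumors, and 77.6 to 101 CPM in Tyk2ΔIEC against 26.3 to 66.8 CPM in Tyk2fl/fl tumors. Neither pair of groups overlapped, and the log2 fold changes were -2.37 ± 0.17 (SE, adjusted p = 0.000846, edgeR) and 1.07 ± 0.24 (adjusted p = 0.0109), values close to those of Psmb8. The class I light chain B2m (-2.52, adjusted p = 0.000846) and the heavy chains H2-K1 (-1.80, adjusted p = 0.00109) and H2-D1 (-1.51, adjusted p = 0.00171) also fell in Tyk2Δ/Δ tumors, and H2-K1 (0.73, adjusted p = 0.0184) and Tap2 (0.68, adjusted p = 0.0162) rose in Tyk2ΔIEC tumors (edgeR). Of the interferon gamma pathway upstream, the receptor chains Ifngr1 and Ifngr2 and the kinases Jak1 and Jak2 were not called in Tyk2Δ/Δ tumors (0 of 4 by edgeR, 1 at an unadjusted p under 0.05, 1 by DESeq2, 0 by limma voom), and Jak2 rose in Tyk2ΔIEC tumors (0.32, adjusted p = 0.0187, edgeR). Ifng itself had 0, 0 and 1 counts in Tyk2Δ/Δ tumors against 5, 5 and 6 in Tyk2+/+ tumors, and 0, 3, 7 and 4 in Tyk2ΔIEC against 2 to 8 in Tyk2fl/fl tumors, too few to be tested.

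**Figure D5:**
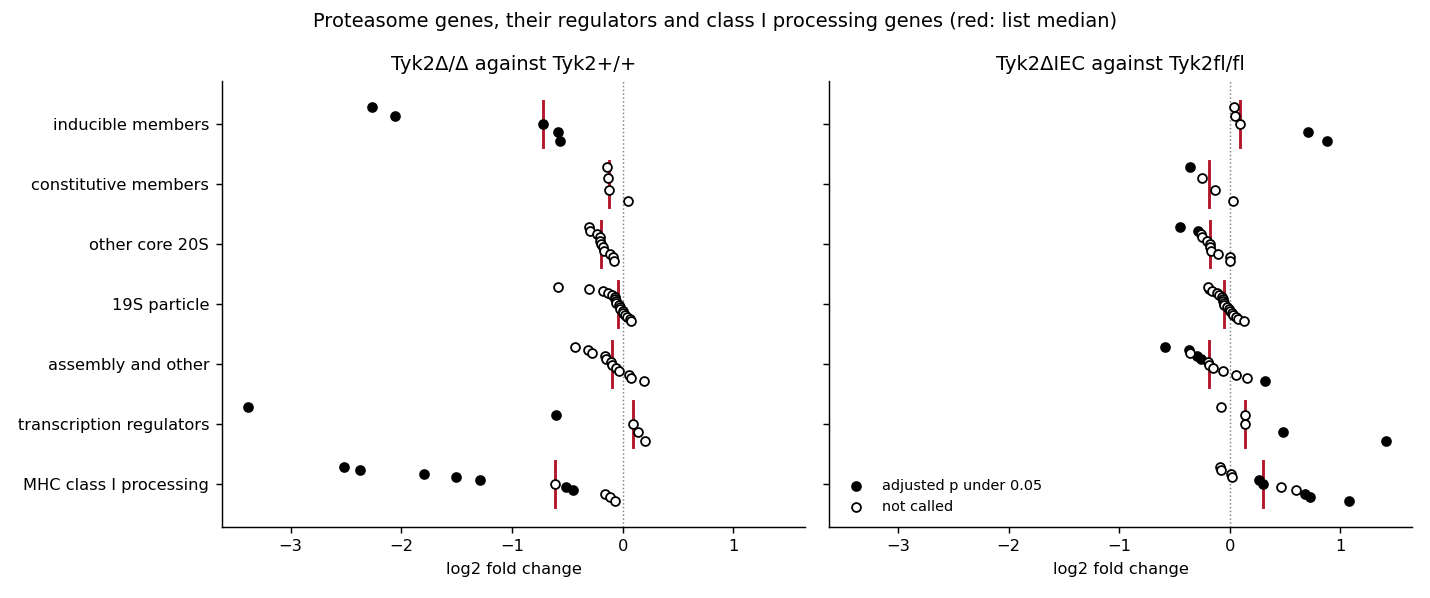
Log2 fold change (x axis) of every tested gene of each list in Tyk2Δ/Δ against Tyk2+/+ tumors (left) and Tyk2ΔIEC against Tyk2fl/fl tumors (right); filled points were called at an adjusted p under 0.05 (edgeR) and the red bar is the list's median. The other 20S core genes, with medians of -0.20 and -0.18, lie near the constitutive members and not near the inducible ones, with a median of -0.72 on the left.

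Markers of some other cell types moved with the inducible genes in the germline experiment. The summed level of 9 T cell and NK cell markers was 6.71 to 9.08 CPM in Tyk2Δ/Δ tumors, with Cd8b1 and Ncr1 at 0 in a library, against 16.2 to 23.8 CPM in Tyk2+/+ tumors, and 4 of the 6 tested were called lower. The summed level of 4 leukocyte markers was 86.0 to 104 CPM in Tyk2Δ/Δ against 129 to 173 CPM in Tyk2+/+ tumors (3 of 4 lower), that of 4 B cell markers 0.895 to 1.62 CPM in Tyk2Δ/Δ against 3.41 to 42.8 CPM in Tyk2+/+ tumors (0 of 2 called by edgeR and limma voom, 2 at an unadjusted p under 0.05 and 2 by DESeq2), and that of 6 smooth muscle markers 104 to 166 CPM in Tyk2Δ/Δ against 227 to 408 CPM in Tyk2+/+ tumors (5 of 6 lower). The 7 epithelial markers summed to 8717 to 9183 CPM in Tyk2Δ/Δ and 7969 to 9473 CPM in Tyk2+/+ tumors, with none called by edgeR, DESeq2 or limma voom (1 at an unadjusted p under 0.05). The myeloid markers summed to 342 to 453 CPM in Tyk2Δ/Δ and 347 to 640 CPM in Tyk2+/+ tumors, the fibroblast markers to 849 to 1463 CPM in Tyk2Δ/Δ and 918 to 1241 CPM in Tyk2+/+ tumors, and the endothelial markers to 49.1 to 81.8 CPM in Tyk2Δ/Δ and 48.6 to 68.3 CPM in Tyk2+/+ tumors. None of the 6 myeloid, 5 fibroblast and 4 endothelial markers was called by edgeR, DESeq2 or limma voom (1, 2 and 1 at an unadjusted p under 0.05). Over all genes, 2.13% were called lower by edgeR in this comparison. Of the T cell and NK cell, leukocyte and smooth muscle markers, limma voom called 4, 2 and 3, and DESeq2 called 5, 3 and 6. The part of these cell types in the fall of the inducible genes was not tested. In bulk tissue, fewer cells of a type and less RNA per cell cannot be told apart.

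In the epithelial experiment the T cell and NK cell markers summed to 8.73 to 14.5 CPM in Tyk2ΔIEC tumors, with Ncr1 at 0 in a library, against 8.25 to 17.6 CPM in Tyk2fl/fl tumors, and 0 of 7 were called by edgeR, DESeq2 or limma voom (0 at an unadjusted p under 0.05). Of these 7 the log2 fold changes of Cd8a (0.81, 95% interval -0.30 to 1.92) and Nkg7 (0.68, 95% interval -0.25 to 1.61), named after their values were seen, were positive and the other 5 negative. The leukocyte markers summed to 87.4 to 115 CPM in Tyk2ΔIEC against 95.5 to 139 CPM in Tyk2fl/fl tumors (3 of 4 lower) and the fibroblast markers to 974 to 1228 CPM in Tyk2ΔIEC against 1015 to 1670 CPM in Tyk2fl/fl tumors (3 of 5 lower). Epithelial markers summed to 7477 to 9556 CPM in Tyk2ΔIEC and 6702 to 10938.5 CPM in Tyk2fl/fl tumors, with 0 of 7 called by any of the 3 tools. The smooth muscle markers summed to 1261 CPM in Tyk2ΔIEC replicate 1, to 142 to 186 CPM in the other 3 Tyk2ΔIEC libraries and to 140 to 677 CPM in Tyk2fl/fl tumors, with 0 of 6 called by the 3 tools (0 at an unadjusted p under 0.05). Without that library Psmb8 was called and Psmb9 was not. Over all genes, 9.71% were called lower by edgeR in this comparison. Of the leukocyte markers limma voom called 1 and DESeq2 3, and of the fibroblast markers each called 3. The part of these cell types in the change of the inducible genes was not tested.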

How the data were processed

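Tumor RNA from 17 libraries was analyzed as 2 experiments, each with its own table. Per the labels and the methods, the authors prepared poly(A)-selected directional libraries, aligned 75-base single-end reads with STAR 2.6.1a in 2-pass mode and deposited the STAR gene counts, that is raw counts of uniquely mapped reads per GENCODE gene on the mouse build GRCm38. The deposited counts of single libraries were identical to the series tables in 17 of 17 libraries. No replicate pair agreed within sampling noise. Gene symbols were matched by identifier for 55154 of 55421 genes, and the 267 unmatched genes held 0.0531% of the counts.

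The quasi-likelihood F test of edgeR 4.0.16 (R 4.3.3) was run on each experiment alone, after filterByExpr with a minimum count of 10 and a minimum total of 15 and with TMM scaling, with Benjamini-Hochberg adjustment over all genes tested and calls at an adjusted p under 0.05. The difference between experiments and the contrasts between all groups came from 1 fit over 17 libraries. Standard errors are the log2 fold change divided by the root of F. Pattern distances used log2 CPM with a prior count of 2. Fits were tested on simulated data. Alternatives were DESeq2 1.42.0, limma 3.58.1 voom, other scalings, filters, samples, controls and depth, a replicate block and leaving out each library. The strand setting of the deposited counts is not given in the sources used here.

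The named genes are the 9 members, their annotated copies, up to 4 called genes per list and comparison by smallest adjusted p, a fixed set of regulators and the 3 genes nearest in pattern to each member. The members, gene lists, markers and motifs were chosen with earlier results of these data known. 1 gene of the lists is not reported here.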

Additional observations from a re-analysis of the deposited data

Results flagged for a closer look

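For 4 inducible genes the change in Tyk2Δ/Δ against Tyk2+/+ tumors differed from that in Tyk2ΔIEC against Tyk2fl/fl tumors by a test of the difference itself (edgeR over 17 libraries). The difference of the log2 fold changes was -3.15 for Psmb8, -2.75 for Psmb9, -0.598 for Psme1 and -0.625 for Psme2. Tyk2+/+ and Tyk2fl/fl tumors, both controls, differed in the same 4 genes, as given above with the order of the groups.

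A single library stood apart in its group in 3 of the 28 series checked by the ratio of the outlying gap to the whole range (Dixon's criterion). Tyk2ΔIEC replicate 2 was lowest for Psmb5 (gap over range 0.868), Tyk2ΔIEC replicate 4 was highest for Psmb6 (0.857) and Tyk2fl/fl replicate 7 was highest for Psmb6 (0.599). Chance flags about 1 in 20 groups by this criterion.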

How the results depend on the processing

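No result changed direction under any alternative among those that were called, and the direction and call of Psmb8 and Psmb9 in Tyk2Δ/Δ tumors and in the difference between the experiments held under every alternative run. Called inducible genes in Tyk2Δ/Δ tumors numbered 5, with 2 past 2-fold and 2 to 5 when each library was left out; Psmb10 lost its call in the fit over all 17 libraries (adjusted p = 0.0864, edgeR). In the difference 4 were called, 2 past 2-fold and 2 to 5 with a library left out, and Psmb10 was called by DESeq2 (adjusted p = 0.0346). In Tyk2ΔIEC tumors 2 inducible genes were called, 0 past 2-fold and 0 to 2 with a library left out. Of the constitutive genes 1 was called there, 2 in the fit over all libraries, 2 against Tyk2fl/fl replicates 4 to 7 or 5 to 7 alone, 0 past 2-fold and 1 to 2 with a library left out.

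Other proteasome genes called in Tyk2Δ/Δ tumors numbered 0, but 6 with DESeq2, 4 without a filter, 2 in the fit over all libraries and 0 to 5 with a library left out. In Tyk2ΔIEC tumors they numbered 8, but 15 with DESeq2, 13 with library totals, 15 over all libraries, 13 and 14 against replicates 4 to 7 and 5 to 7 alone, 0 past 2-fold and 4 to 14 with a library left out. The cause was not tested. The log2 ratio difference of -1.14 in the germline experiment was -0.80 with summed counts, -0.95 with medians, -1.53 for catalytic subunits alone and -1.22 to -1.03 with a library left out; that of 0.56 in the epithelial experiment was 0.36 with summed counts, 0.86 for catalytic subunits alone and 0.50 to 0.62 with a library left out.

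Replicate numbers did not pair the samples: deviations of same-numbered libraries correlated at -0.08 to 0.00 in the germline and -0.39 to 0.08 in the epithelial experiment. With the replicate number as a block, no member call changed in Tyk2Δ/Δ tumors, while in Tyk2ΔIEC tumors 0 inducible, 0 constitutive and 2 other proteasome genes were called. Psmb8 was then at 0.88 (adjusted p = 0.0948, edgeR), Psmb9 at 0.73 (adjusted p = 0.108) and Psmb5 at -0.30 (adjusted p = 0.0626), and the Psmb10 difference was called (-1.02, adjusted p = 0.0191). Thinning the deeper Tyk2fl/fl libraries changed no member call. Every Tyk2fl/fl library was deeper than every Tyk2ΔIEC library, so genotype cannot be told apart from whatever made the depths differ. Thinning evens the counts only, and other sources of this split were not tested. With 3 libraries a group, changes of the constitutive genes within their printed intervals were not detectable.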
